A study of Mus musculus with 5 samples.

Results

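Macrophage transcripts were followed in poly(A) RNA from TER119-positive erythroid cells of fetal liver, through 31 genes chosen by name: surface, scavenger, complement, lysosomal and myeloid genes that mark the macrophages of erythroblastic islands or myeloid cells in general. All 31 were found by symbol among the 39179 genes of the count table. Of these, 9 are mainly genes of resident liver and island macrophages, 14 serve phagocytosis, scavenging or lysosomal digestion, and 8 are general myeloid genes. The libraries came from C57BL/6 embryos at 14.5 days post conception. The 3 controls were Csnk2b+/+ Vav+/Cre and the 2 knockouts (KO) Csnk2bfl/fl Vav+/Cre, so both groups carried the Cre transgene. Csnk2b encodes the regulatory subunit of the protein kinase CK2. The Vav1 promoter drives Cre in all blood lineages, which include macrophages as well as erythroid cells, and whether Csnk2b was deleted in macrophages was not measured. Each title names an embryo, and the labels do not say whether a library was pooled, so a p-value covers only the spread among these 5 libraries, which may be technical.

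In the fetal liver, erythroblasts mature in islands around a central macrophage. The macrophage holds them through adhesion molecules such as VCAM-1, supplies iron, and engulfs and digests the nuclei they expel. Macrophages belong to the myeloid lineage and do not make TER119 themselves, and the labels give no purity for the sort.

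Totals ran from 13187094 to 15366021 counts per library. Levels are counts per total of the scaled library (CPM), where 1 CPM was 13 to 15.5 counts after scaling by the trimmed mean of M-values (TMM). The targeted gene Csnk2b was at 186, 186 and 169 CPM in the controls and at 112 and 95.6 CPM in the KO libraries (log2 fold change -0.80 ± 0.09 SE, adjusted p = 0.0018 in edgeR). Control replicate 3 stood apart in holding 1142 counts of 4 Y-linked genes, where no other library had more than 2, together with Xist at 547 CPM. The KO libraries differed from each other in genes induced by interferon: 9 such genes summed to 1550 CPM in KO replicate 1, 468 in KO replicate 2 and 66.1 to 89.7 in the controls. The erythroid label fitted its markers, since 10 erythroid genes summed to 42200 to 58600 CPM against 319 to 474 CPM for the 31 macrophage and myeloid genes.

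Of the 31 genes, 5 fell and none rose in KO in the edgeR quasi-likelihood test over 13000 genes at an adjusted p below 0.05. Across all genes tested, 1.83% fell and 5.15% rose. The 5 were Adgre1, Cd5l, Vcam1, Marco and C1qc, and their KO means lay 37.4% to 44.7% below the control means. None of the 7 general myeloid genes tested was among them. DESeq2 and limma-voom also called 5 lower and none higher. The tested genes numbered 28, but 1 of them, Folr2, passed the filter on low counts through the controls alone and had to come out lower, so it is left out of the counts and medians that follow. Of the other 27, 16 were lower and 1 was higher at an unadjusted p under 0.05, beside 9.48% and 14.3% of all genes tested. Their median log2 fold change was -0.38, beside 0.015 over all genes tested. In 17 of the 27, both KO libraries lay below all controls, and in 1, Lgmn, above them. Over all genes tested, 19.3% had both KO libraries below and 21.9% above. In bulk RNA, fewer macrophages and less of these RNAs per macrophage cannot be told apart.

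**Figure D1:**
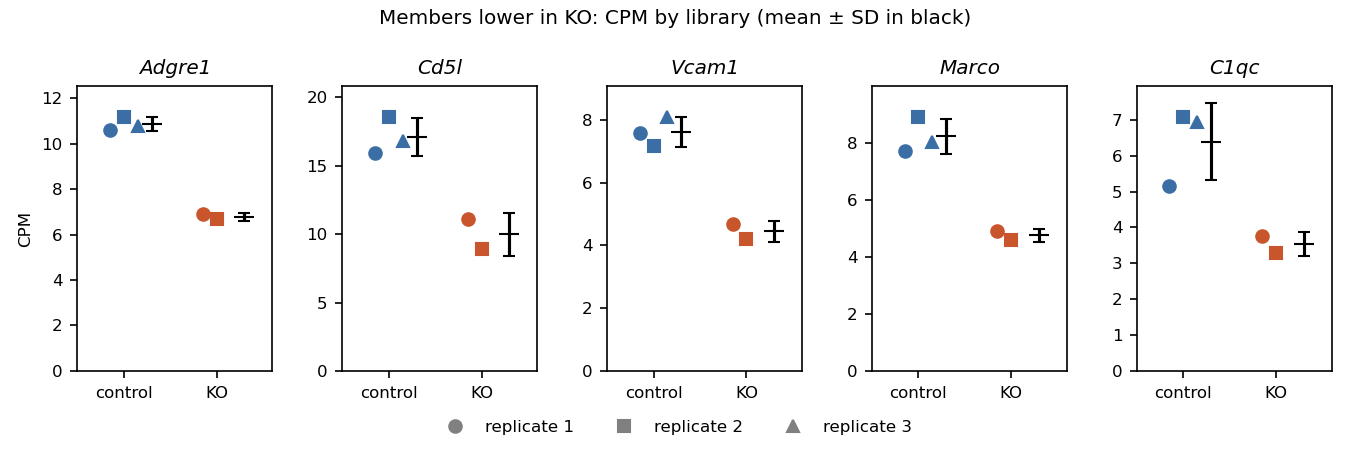
CPM (vertical axes, each from 0) of the 5 genes that fell, in the 3 control (blue) and 2 KO (orange) libraries, with marker shapes for the replicate number and the group mean ± SD in black. In each panel both KO libraries sit below every control, as for Adgre1 at 6.67 and 6.92 CPM against 10.6 to 11.2.

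Resident macrophage genes had the lowest median, with a log2 fold change of -0.78 over 6 genes, beside -0.42 over 14 phagocytic and -0.21 over 7 general myeloid genes. Adgre1, which encodes the adhesion receptor used as the classical surface marker of mouse macrophages, was at 10.6, 11.2 and 10.8 CPM in the controls and at 6.92 and 6.67 CPM in the KO libraries, here and below in the order of their replicate numbers. Its groups did not overlap, the replicates of each group lay close together, and it fell by 0.68 ± 0.13 (SE) log2 units (adjusted p = 0.016 in edgeR). Cd5l, a secreted scavenger-receptor protein of tissue macrophages, was at 15.9, 18.6 and 16.8 CPM in the controls and 11.1 and 8.88 CPM in the KO libraries. It fell by 0.78 ± 0.14 log2 units (adjusted p = 0.012 in edgeR), with KO replicate 2 the lowest library. Vcam1, through which the macrophage grips an erythroblast integrin, was at 7.59, 7.16 and 8.11 CPM against 4.69 and 4.21 CPM. Again both KO libraries lay below every control, and Vcam1 fell by 0.78 ± 0.15 log2 units (adjusted p = 0.017 in edgeR).

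The rarer resident genes had values in the same direction, but each rested on few counts and none passed the test. Spic, the transcription factor that iron-recycling macrophages need, had 23, 21 and 20 counts in the controls and 11 and 12 in the KO libraries, with a log2 fold change of -0.87 ± 0.23 (adjusted p = 0.083 in edgeR). Clec4f, a lectin of liver Kupffer cells, had 15, 21 and 22 counts against 11 and 11, with a log2 fold change of -0.79 ± 0.30 (adjusted p = 0.15 in edgeR). Their groups did not overlap in CPM. Folr2, the folate receptor of resident macrophages, had 11, 11 and 10 counts against 5 and 5. Its log2 fold change, below 0 by the filter, was -1.06 ± 0.32 (adjusted p = 0.15 in edgeR). Siglec1, the sialic-acid receptor CD169 of island macrophages, was at 2.32, 2.97 and 2.70 CPM in the controls and at 2.00 and 1.68 CPM in the KO libraries (log2 fold change -0.53 ± 0.20, adjusted p = 0.16 in edgeR).

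A pair of resident genes was close to absent. Vsig4, the complement receptor of adult Kupffer cells, was listed at 0 in all 5 libraries, which allows up to 0.193 to 0.231 CPM per library on counting error alone. Cd163, the receptor for haptoglobin-bound hemoglobin, had 1 count in control replicate 1 and 1 in KO replicate 1. Neither was tested.

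**Figure D2:**
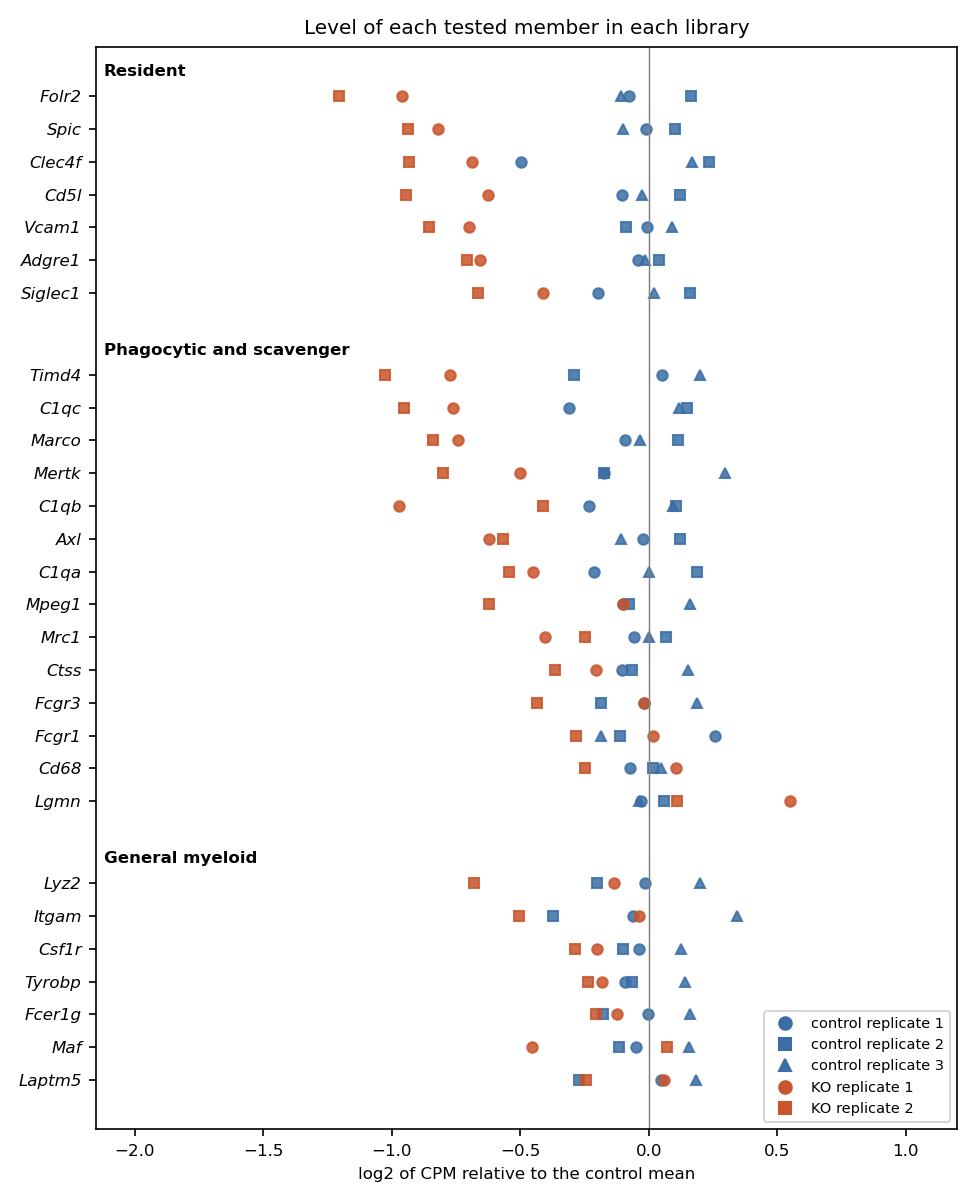
Log2 of each library's CPM relative to the control mean (horizontal axis) for the 28 genes tested, grouped by role and ordered by fold change within a role, with controls in blue and KO in orange. In the resident group both KO libraries lie to the left of all controls in 6 of 6 genes besides Folr2, and in the general myeloid group in 2 of 7, beside 19.3% of all genes tested.

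Phagocytic and scavenger genes were mixed. Marco, a scavenger receptor that binds bacteria and debris, was at 7.72, 8.92 and 8.04 CPM in the controls and 4.92 and 4.60 CPM in the KO libraries. The groups lay well apart, and Marco fell by 0.79 ± 0.15 log2 units (adjusted p = 0.016 in edgeR). Receptors for the engulfment of dying cells and expelled nuclei were lower in value without passing. Timd4, which binds phosphatidylserine, was at 2.32, 1.83 and 2.57 CPM against 1.31 and 1.10 (log2 fold change -0.90 ± 0.23, adjusted p = 0.054 in edgeR). Axl was at 6.63, 7.32 and 6.24 CPM against 4.38 and 4.54 (log2 fold change -0.59 ± 0.15, adjusted p = 0.052 in edgeR). Mertk, its relative, was at 2.90, 2.90 and 4.02 CPM against 2.31 and 1.88 (log2 fold change -0.65 ± 0.22, adjusted p = 0.12 in edgeR). In each of these 3 genes both KO libraries lay below every control. Axl and Timd4 stood just outside the threshold. In edgeR they passed with library scaling by relative log expression (RLE), at adjusted p-values of 0.048 and 0.050. They also passed with TMM computed without globin genes, at 0.046 and 0.049 in edgeR. Both missed the threshold in DESeq2 (adjusted p = 0.19 and 0.31), in limma-voom (0.052 and 0.063) and in edgeR without a filter on low counts (0.096 and 0.11). They also missed it with a replicate block and whenever a control was left out. Axl passed among genes with at least 5 CPM in 2 libraries (adjusted p = 0.042 in edgeR). Without KO replicate 1, which leaves a lone KO library, Timd4 had a log2 fold change of -1.05.

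The chains of complement C1q come from 3 neighbouring genes on the minus strand of chromosome 4 in build mm10: C1qb from 136880129 to 136886187, C1qc from 136889804 to 136893065 and C1qa from 136895917 to 136898803. One protein needs all 3 chains. C1qc was at 5.15, 7.09 and 6.93 CPM in the controls and 3.77 and 3.30 CPM in the KO libraries, and fell by 0.85 ± 0.19 log2 units (adjusted p = 0.033 in edgeR). C1qb was at 6.69, 8.46 and 8.39 CPM against 4.0 and 5.90 (log2 fold change -0.65 ± 0.20, adjusted p = 0.087 in edgeR). C1qb had a log2 fold change of -0.97 without KO replicate 2 and of -0.43 without KO replicate 1. C1qa was at 3.35, 4.42 and 3.88 CPM against 2.84 and 2.66 (log2 fold change -0.49 ± 0.19, adjusted p = 0.15 in edgeR). Control replicate 1 was the lowest control for each chain, and no KO library reached it. Whether the 3 chains differed in fold change was not tested.

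None of the remaining phagocytic genes passed. Mrc1, the mannose receptor, was at 12.2 to 13.3 CPM in the controls and at 9.61 and 10.7 CPM in the KO libraries (log2 fold change -0.32 ± 0.12, adjusted p = 0.14 in edgeR). The lysosomal protease gene Ctss had a value of -0.29 ± 0.15 and the pore-forming protein gene Mpeg1 one of -0.34 ± 0.15. Mpeg1 had a value of -0.64 without KO replicate 1 and of -0.10 without KO replicate 2. The immunoglobulin receptor genes Fcgr1 and Fcgr3 had values of -0.14 ± 0.20 and -0.23 ± 0.16, and the lysosomal marker Cd68 one of -0.06 ± 0.16. Fcgr1, Fcgr3, Cd68 and Mpeg1 overlapped between groups. Lgmn, which encodes the lysosomal protease legumain, was the 1 tested gene with a fold change above 1. It was at 25.5, 27.1 and 25.3 CPM in the controls and at 38.1 and 28.1 CPM in the KO libraries (log2 fold change 0.35 ± 0.13, adjusted p = 0.13 in edgeR). Most of that difference came from KO replicate 1: the value was 0.09 without it and 0.55 without KO replicate 2.

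**Figure D3:**
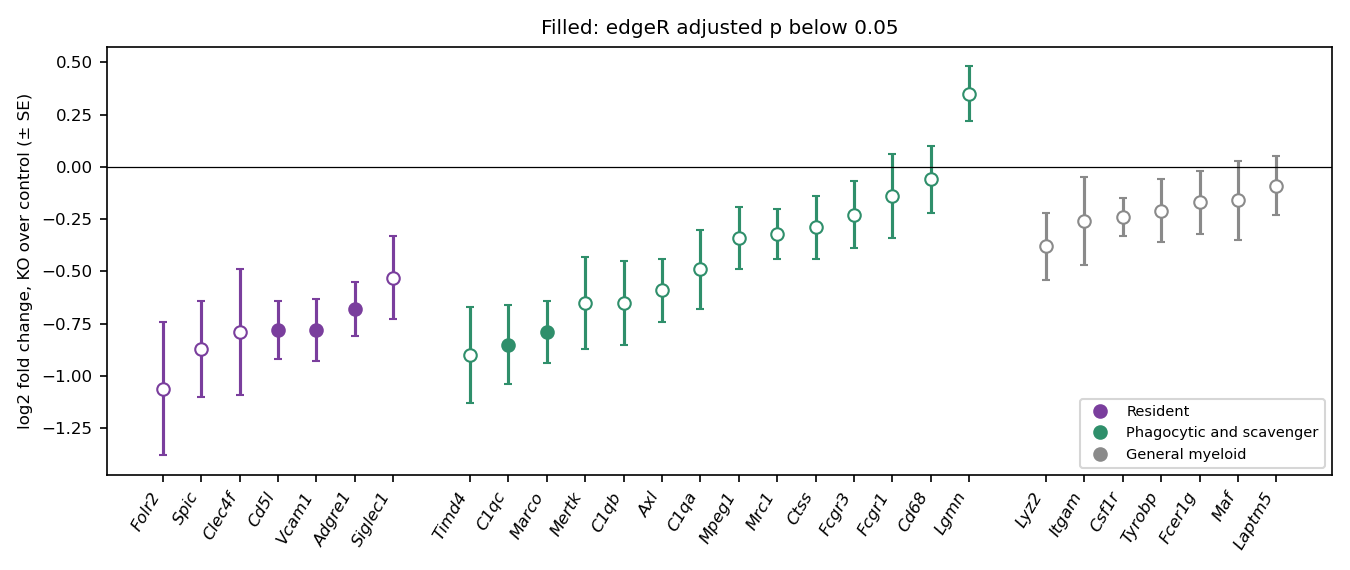
Log2 fold change of KO over control (vertical axis) with its standard error for the 28 genes tested, coloured by role and filled where the edgeR adjusted p was below 0.05. The 5 filled points lie between -0.85 and -0.68, and the general myeloid genes lie between -0.38 and -0.09.

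With all libraries, none of the 7 general myeloid genes tested passed in edgeR, DESeq2 or limma-voom, and 2 had an unadjusted p under 0.05 in edgeR, Lyz2 and Csf1r. Lyz2, the lysozyme of granulocytes, monocytes and macrophages, was at 96.6, 84.8 and 112 CPM in the controls and at 88.9 and 61.0 CPM in the KO libraries. KO replicate 1 lay within the controls and KO replicate 2 below them (log2 fold change -0.38 ± 0.16, adjusted p = 0.19 in edgeR). Lyz2 had a log2 fold change of -0.70 without KO replicate 1 and of -0.14 without KO replicate 2. Csf1r, the receptor for the macrophage growth factor CSF-1, was at 47.5, 45.5 and 53.3 CPM against 42.5 and 40.0 (log2 fold change -0.24 ± 0.09, adjusted p = 0.15 in edgeR). Csf1r shares 873 bp of exon with Hmgxb3 on the opposite strand, which held 816 to 1071 counts per library, and no source used here says whether counting used strand. Laptm5, a lysosomal membrane protein gene of blood cells, was at 65.4, 52.4 and 72.0 CPM against 66.0 and 53.5 (log2 fold change -0.09 ± 0.14, adjusted p = 0.75 in edgeR), so its groups overlapped almost completely.

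The other general myeloid genes were close to these. Itgam, the integrin chain CD11b, had a log2 fold change of -0.26 ± 0.21. The signalling adaptor genes Tyrobp and Fcer1g had values of -0.21 ± 0.15 and -0.17 ± 0.15. Maf, a macrophage transcription factor gene that other cells also use, had one of -0.16 ± 0.19, with its KO libraries at 4.23 and 6.09 CPM on either side of the lowest control. Cd14, the lipopolysaccharide co-receptor gene, had 4 to 14 counts per library and was not tested.

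Per length, levels differed widely between genes. In CPM per kilobase of exon (RPKM), Lyz2 had the highest control mean at 74.2, followed by Laptm5 at 16.7, Lgmn at 11.2 and Tyrobp at 11.1. Among resident genes Cd5l was highest at 8.39 RPKM, followed by Adgre1 at 3.35, while Vcam1 was at 0.859 and Siglec1 and Spic were at 0.373 and 0.388. C1qb, C1qa and C1qc had control means of 7.21, 3.73 and 3.31 RPKM. These lengths join all annotated exons of a gene, so they may exceed the transcript that was read.

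The role groups also differed in how they varied among the controls. In CPM, control replicate 2 was the highest control in 5 of 6 resident genes besides Folr2 and the lowest in 6 of 7 tested general myeloid genes, beside 34.3% and 35.8% of all genes tested. Control replicate 3 was the highest control in 7 of 7 general myeloid genes. Granulocyte markers had the general myeloid order, with control replicate 2 lowest in 12 of 12 tested. Summed over their 13 members they stood at 746, 568 and 826 CPM in the controls and 777 and 647 CPM in the KO libraries. Mpo alone made up 473 of their 713 CPM control mean. The 12 tested had log2 fold changes from -0.76 to 0.49, with a median of -0.1. Of these, 8 lay below 0 and 4 above, beside 47.5% of all genes tested below. The 8 general myeloid genes summed to 250, 218 and 286 CPM and to 236 and 188 CPM.

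The summed level of the resident genes separated the groups. The 9 genes summed to 39.6, 44.0 and 42.0 CPM in the controls and to 26.8 and 23.3 CPM in the KO libraries, with means of 41.9 CPM ± 2.21 (SD, n = 3) and 25.0 CPM ± 2.52 (SD, n = 2). Cd5l and Adgre1 make up most of this sum. The 14 phagocytic genes summed to 133, 140 and 147 CPM against 131 and 108 CPM, and here KO replicate 1 was close to the lowest control. Set against the counts of general myeloid genes in the same library, which removes library scaling, there were 15.9, 20.2 and 14.7 resident counts per 100 in the controls and 11.4 and 12.4 in the KO libraries. The log2 ratio of the sums was -0.74 for resident genes, and -0.869 and -0.646 without KO replicate 1 and 2. For the phagocytic genes it was -0.23, and it went from -0.40 without KO replicate 1 to -0.097 without KO replicate 2. That of the general myeloid genes was -0.24, and it went from -0.438 to -0.094 in the same fits.

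**Figure D4:**
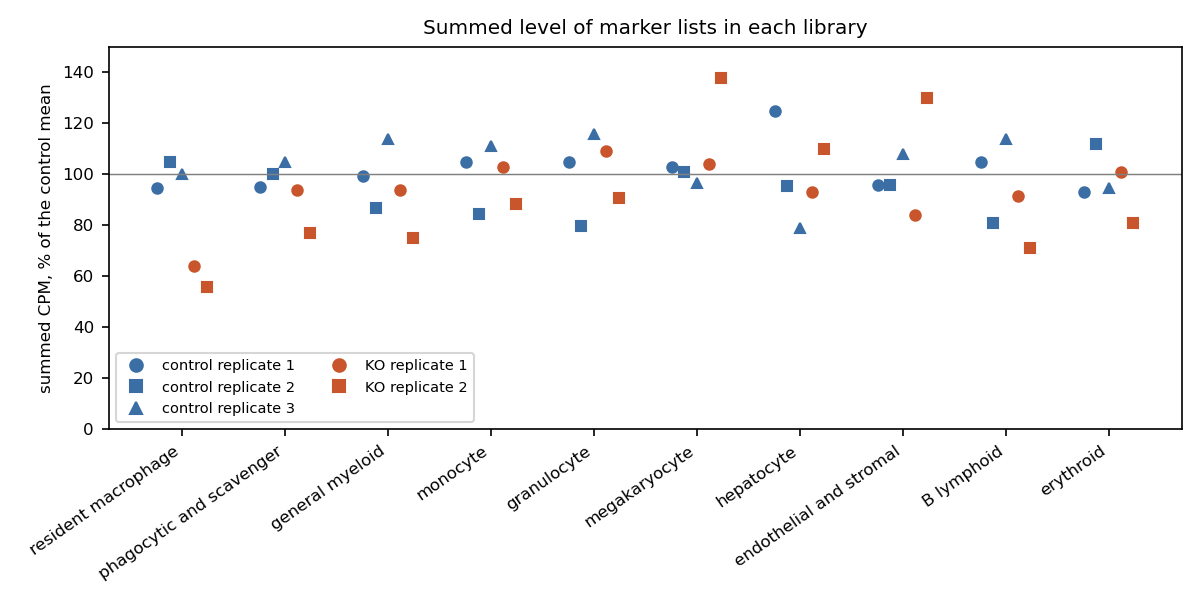
Summed CPM of marker lists as a percentage of the control mean (vertical axis, from 0), one point per library, controls in blue and KO in orange. Resident macrophage genes are at 64.1% and 55.6% in the KO libraries. Phagocytic genes are at 93.8% and 77%, general myeloid at 94% and 74.9%, and B lymphoid at 91.4% and 71%. Erythroid genes are at 101% and 80.8%, monocyte at 103% and 88.2%, and granulocyte at 109% and 90.7%. Hepatocyte genes are at 93.2% and 110%, endothelial and stromal at 84.1% and 130%, and megakaryocyte at 104% and 138%. Mpo alone makes up 473 of the 713 CPM control mean of the granulocyte list.

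Markers of other cells that the sort could hold gave these values. None of 5 monocyte, 12 granulocyte, 3 mast cell and basophil, 8 megakaryocyte, 10 hepatocyte and 4 B lymphoid genes tested was called in edgeR. At an unadjusted p under 0.05 in edgeR, the numbers lower were 2, 3, 0, 1, 0 and 0 in this order. The numbers higher were 0, 1, 0, 2, 0 and 0. Over all genes tested, 9.48% were lower and 14.3% higher at that level. DESeq2 called 1, the megakaryocyte gene Itga2b, higher. Monocyte markers summed to 97.0 to 127 CPM in the controls and to 118 and 101 CPM in KO. Their median log2 fold change was -0.41 over 5 tested: Ly6c2, F13a1 and Ccr2 had values of -0.60, -0.46 and -0.41, and Itgal and Fn1 of 0.14 and 0.34. Megakaryocyte markers summed to 118 to 125 CPM and to 127 and 168, hepatocyte markers to 234 to 372 and to 276 and 327, and mast cell markers to 16.1 to 24.5 and to 21.1 and 25.9. B lymphoid markers summed to 7.01 to 9.85 CPM and to 7.92 and 6.16. Of 7 endothelial and stromal genes tested, 1 rose, the collagen gene Col1a1, which no longer passed in fits that left out a control or the filter on low counts (largest adjusted p 0.11 in edgeR). At an unadjusted p under 0.05 in edgeR, 2 of the 7 were lower, the endothelial genes Cdh5 and Stab2 (log2 fold changes -0.47 and -0.30). Another 2 were higher, the collagen genes Col1a1 and Col3a1 (2.05 and 1.43). The list summed to 61.5 to 69.4 CPM in the controls and to 54.0 and 83.1 in KO. The 10 erythroid genes were all below 1 in fold change, beside 47.5% of all genes tested, with a median log2 value of -0.21. In 6 of the 10 both KO libraries lay below all controls, beside 19.3% of all genes tested. None of the erythroid genes was called in edgeR, and 4 were lower at an unadjusted p under 0.05. DESeq2 called 3 lower, Tfrc, Epb42 and Ermap, beside 288 of 13000 genes. The part of these cells in the macrophage result was not tested.

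Transcription factor genes of macrophages and their progenitors were set beside the markers. Cebpb, a factor of granulocytes and activated macrophages that responds to stress in many cells, was at 8.43, 7.47 and 7.91 CPM against 17.6 and 19.2, and rose by 1.21 ± 0.12 log2 units (adjusted p = 0.00093 in edgeR). Spi1, which encodes the myeloid master regulator PU.1, was at 17.8, 15.1 and 18.6 CPM against 18.6 and 17.5 (log2 fold change 0.07 ± 0.12, adjusted p = 0.77 in edgeR). Zeb2, the most abundant of the list in CPM, had a log2 fold change of -0.23 ± 0.09 (adjusted p = 0.17 in edgeR). Cebpb passed in each alternative.

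Promoters of 3 of the 5 genes that fell are shown, because PU.1 and its relative Spi-C, both myeloid regulators, bind purine-rich sites built on the letters GAGGAA. Adgre1 and Vcam1 had no window in the promoter set. RefSeq windows of 300 bases around the gene start (GRCm38.p6) matched 23 of the 31 genes. GAGGAA on either strand was found in 13 of these 23, beside 31.3% of the 27025 genes in the window table. By role it was found in 2 of 6 resident, 9 of 13 phagocytic and 2 of 4 general myeloid genes, with no test made. The stretches upstream of the annotated start follow, with GAGGAA or its reverse complement in capitals, for Cd5l (chr3:87357631-87357880, plus strand), Marco (chr1:120505025-120505274, minus strand), C1qc (chr4:136893066-136893164, minus strand) and, as a general myeloid gene that did not pass, Itgam (chr7:128062390-128062639, plus strand).
Cd5l: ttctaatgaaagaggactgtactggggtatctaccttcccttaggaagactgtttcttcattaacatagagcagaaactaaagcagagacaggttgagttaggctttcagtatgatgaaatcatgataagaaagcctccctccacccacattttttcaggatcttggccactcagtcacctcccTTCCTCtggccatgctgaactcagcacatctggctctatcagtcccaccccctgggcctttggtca
Marco: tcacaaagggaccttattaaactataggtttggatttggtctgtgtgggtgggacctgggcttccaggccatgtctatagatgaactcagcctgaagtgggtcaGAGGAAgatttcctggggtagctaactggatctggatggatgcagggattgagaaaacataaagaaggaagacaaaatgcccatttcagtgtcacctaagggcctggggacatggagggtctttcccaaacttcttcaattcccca
C1qc: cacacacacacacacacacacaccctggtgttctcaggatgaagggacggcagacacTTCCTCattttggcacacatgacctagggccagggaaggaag
Itgam: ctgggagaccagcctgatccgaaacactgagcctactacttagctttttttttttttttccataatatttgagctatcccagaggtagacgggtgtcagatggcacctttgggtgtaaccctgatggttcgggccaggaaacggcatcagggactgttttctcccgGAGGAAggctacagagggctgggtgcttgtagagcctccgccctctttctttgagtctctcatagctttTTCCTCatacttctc
The first 3 stretches hold 1 match each and that of Itgam holds 2. Itgam was 1 of the 2 general myeloid genes with a match, so it does not stand for genes without a call. A match is not a binding site.

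Of 7 adhesion genes on the erythroblast side of the island, none was called in edgeR. In that fit 4 had an unadjusted p under 0.05, of which 3 were lower and 1 was higher. Over all genes tested, 9.48% were lower and 14.3% higher at that level. DESeq2 called 2 lower, Itga4 and Cd47, beside 288 of 13000 genes. Itga4, whose integrin binds VCAM-1, was at 727, 700 and 731 CPM in the controls and 624 and 494 CPM in the KO libraries (log2 fold change -0.36 ± 0.11, adjusted p = 0.074 in edgeR). Icam4, an erythroid ligand for macrophage integrins, was at 122, 152 and 125 CPM against 103 and 111 (log2 fold change -0.31 ± 0.10, adjusted p = 0.11 in edgeR). Cd47, which signals to macrophages not to engulf, had a log2 fold change of -0.29 ± 0.08 (adjusted p = 0.073 in edgeR). In these 3 genes both KO libraries lay below every control. Cd44, a hyaluronan receptor, was the fourth and lay the other way, at 77.5, 72.8 and 80.2 CPM against 99.1 and 84.9 (log2 fold change 0.26 ± 0.09, adjusted p = 0.11 in edgeR). Maea, the erythroblast macrophage protein gene, was at 88.9 to 93.4 CPM against 85.9 and 90.7.

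Of the other engulfment and iron recycling genes, Cd36 and Slc40a1 fell and none rose in edgeR, beside 1.83% and 5.15% of all genes tested. At an unadjusted p under 0.05 in edgeR, 1 of 8 engulfment and 3 of 8 recycling genes were lower, and none was higher. Over all genes tested, 9.48% were lower and 14.3% higher at that level. Cd36, a scavenger and fatty acid receptor that erythroid progenitors carry as well as macrophages, was at 31.5, 31.6 and 35.6 CPM in the controls and 20.4 and 17.8 CPM in the KO libraries. It fell by 0.79 ± 0.10 log2 units (adjusted p = 0.0036 in edgeR), as the 1 of 8 engulfment genes called. Dnase2a, which digests the DNA of engulfed nuclei, was at 35.8 to 37.1 CPM against 30.7 and 36.5 (log2 fold change -0.12 ± 0.09, adjusted p = 0.49 in edgeR). Slc40a1, the iron exporter ferroportin of macrophages and erythroid cells, was at 86.0, 95.7 and 89.2 CPM against 74.3 and 62.7. It fell by 0.40 ± 0.09 log2 units (adjusted p = 0.036 in edgeR), the 1 of 8 recycling genes called. Blvrb and Fth1, the most abundant of that list in CPM, had log2 fold changes of 0.01 ± 0.13 and -0.15 ± 0.10. In fits that left out a library, Slc40a1 passed only without KO replicate 1, it missed the threshold without a filter on low counts, and its largest adjusted p over the alternatives was 0.14.

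Among the 11 further macrophage and leukocyte genes tested, 1 rose and none fell in edgeR, beside 5.15% and 1.83% of all genes tested. Of these 11, Aif1 passed the filter on low counts through the controls alone. In the other 10, 3 were lower and 1 was higher at an unadjusted p under 0.05 in edgeR, beside 9.48% and 14.3% of all genes tested. DESeq2 called 1, Ctsb, lower. The rise was that of Grn, the gene for the lysosomal growth factor progranulin, at 29.2, 30.8 and 32.0 CPM against 45.5 and 40.4 (log2 fold change 0.48 ± 0.09, adjusted p = 0.014 in edgeR). It no longer passed when control replicate 1 or 2 was left out or without a filter on low counts, and its largest adjusted p over the alternatives was 0.082. Ctsb and Ctsd, lysosomal protease genes and the most abundant of the list in CPM, had log2 fold changes of -0.33 ± 0.09 and 0.00 ± 0.09.

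Siglec1 and Fcgr1 are known to be induced by interferon, and they were set beside 9 interferon-stimulated genes. All 9 of those rose, with log2 fold changes from 2.17 for Bst2 to 5.83 for Ifit1, and in 8 of the 9 KO replicate 1 was the higher KO library. Siglec1 lay below the controls in both KO libraries, and Fcgr1 was at 4.63, 3.58 and 3.40 CPM against 3.92 and 3.18. Rsad2 rose by 4.60 ± 0.90 log2 units (adjusted p = 0.019 in edgeR), and it missed the threshold in limma-voom, without a filter on low counts and without control replicate 1 or 2, with log2 fold changes of 1.71 to 5.50 and a largest adjusted p of 0.12 over the alternatives. Siglec1 and Fcgr1 did not pass in edgeR, with adjusted p-values of 0.16 and 0.72.

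The calls depended on single libraries while the fold changes of the 5 genes that fell moved little. Adgre1, Cd5l, Vcam1 and Marco had log2 fold changes between -0.96 and -0.63 over all 12 alternatives, and C1qc between -0.99 and -0.76. Some other members moved more, as Lyz2 between -0.70 and -0.14 and Mpeg1 between -0.64 and -0.10. Without control replicate 1, 2 and 3 there were 2, 0 and 1 calls among the 31 genes, and without KO replicate 1 and 2 there were 8 and 4, of which 1 was the rise of Lgmn. Without control replicate 2 the adjusted p-values of the 5 genes were 0.059 to 0.12.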

How the data were processed

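RNA of 3 control and 2 KO libraries was read on an Ion Proton after oligo(dT) selection, per the labels' protocols. Reads were handled, per the submitters' processing notes, with cutadapt, HTSeq, STAR and Bowtie on build mm10. Versions, settings and the use of strand were not given in the sources used here. Whole-number gene counts are what the authors deposited, with no normalisation. Symbols, positions and exon lengths came from GENCODE M21 (GRCm38), which named 37607 of 39179 genes, and promoters from RefSeq.

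Counts were tested with edgeR 4.0.16 in R 4.3.3 (glmQLFit, glmQLFTest, TMM, filterByExpr, 13000 genes kept, group as the 1 term, 3 residual degrees of freedom, Benjamini-Hochberg over all genes, threshold 0.05). The filter level was 0.693 CPM. Means ± SD are of CPM. Tested on simulated counts of these 13000 genes, the steps recovered 85.5% of genes lowered by 1 on the log2 scale and 61.2% of those lowered by 0.7, and 8.19% of calls were false. Each simulation changed 200 genes and gave a gene the same spread in both groups, unlike the KO libraries here. The rates are over genes of all levels, so they do not give the recovery of rare members. Intervals and limits cover counting error only, and reads carry no molecular identifiers.

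The members and lists were chosen with earlier results of these data known. All members are named, and from the other lists the genes called and the most abundant; cell type lists are given by sums. Maea, Icam4, Cd44, Cd47, Ly6c2, F13a1, Ccr2, Itgal, Fn1, Rsad2, Spi1, Dnase2a, Mpo, Cdh5, Stab2, Col3a1, Aif1, Bst2 and Ifit1 are named outside that rule, after their values were seen. From the list of transcription factor genes, 1 result is not reported here. Alternatives were RLE scaling, TMM without globin genes, DESeq2 1.42.0, limma-voom (limma 3.58.1), no filter, at least 5 CPM in 2 libraries, a replicate block and each library left out. Ratios of sums by role were added after seeing the data.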

Additional observations from a re-analysis of the deposited data

How the results depend on the processing

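Over all genes the number called was 907, and 288 without a filter on low counts, which tests 21077 genes; in those settings 5 and 3 of the macrophage genes were called lower. The median log2 fold change of the genes tested, Folr2 included, was -0.438, and -0.311 with at least 5 CPM in 2 libraries, which leaves 20 of them. Leaving out 1 library gave 241 to 2956 calls over all genes, 0 to 8 macrophage genes lower and 0 to 1 higher, a median of -0.574 to -0.392 and a log2 ratio of their summed CPM of -0.462 to -0.14, against -0.28 with all libraries. A fit without a KO library assumes that the lone KO library varies like the controls, and KO replicates 1 and 2 differed from each other more than the controls did (chi-square per degree of freedom 17.7 against 4.30 to 6.35). Among 327 values of single genes under the alternatives, 299 kept their side of the threshold, 18 lost the call, 10 gained one and 0 turned with a call. Some of the 299 changed sign without a call. Without KO replicate 2, Laptm5 went from -0.09 to 0.05 and Cd68 from -0.06 to 0.11. Without a filter, Cd5l and C1qc missed the threshold (adjusted p = 0.054 and 0.096). DESeq2 and limma-voom each called the same 5 genes. With a replicate block, 873 genes were called over the table and 4 macrophage genes were lower, C1qc missing the threshold (adjusted p = 0.054), and the median was -0.399. The numbers were shared by 2 pairs whose deviations correlated at 0.0096 and 0.056 across genes. With 2 KO libraries, the deviations of one mirror those of the other, so these values cannot decide whether libraries were paired. The main fit treated them as unpaired. Spic, Clec4f and Folr2 had 5 to 23 counts per library, and the part of depth in their missing calls was not tested.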
